A study of Mus musculus with 10 samples.

Results

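The mitochondrially encoded transcripts are the genes whose name in the deposited table starts with mt-, and 37 of the 52636 genes in the table met that rule. They comprise 13 protein-coding genes, 2 ribosomal RNA genes and 22 transfer RNA genes. The 6 protein-coding genes with a near-identical copy in the nuclear genome (mt-Nd3, mt-Nd4, mt-Nd4l, mt-Co2, mt-Co3 and mt-Atp6) were described apart from the other 7. Total RNA came from S1BF (the whisker barrel field of somatosensory cortex) of C57BL/6 mice at postnatal day 17. The 4 Loxp libraries were from mice with the floxed Rxratm1Krc/J allele and no Cre. The 2 Hetero libraries were from Nex-cre mice with that allele, labelled Rxra cKO-Het, and the 4 cKO libraries from Nex-cre mice with that allele, labelled Rxra cKO, so that all 3 groups carried the floxed allele. Nex-cre expresses Cre from the Neurod6 locus, which is active in cortical excitatory neurons, so other cell types of the tissue are not direct targets of it. Rxra encodes the retinoid X receptor alpha, a nuclear receptor that binds DNA with partner receptors. The labels do not say whether the libraries of a group came from separate animals, and p-values therefore measure only the spread between these libraries, which may be technical.

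The mitochondrial genome is a small circle that is transcribed from both strands into long precursors. These are cut at the tRNAs that lie between most genes, which releases the rRNAs, the mRNAs and the tRNAs. The mRNAs encode core subunits of respiratory complexes I, III and IV and of ATP synthase, and the nuclear genome encodes the remaining subunits and all proteins that copy, transcribe and translate mitochondrial DNA. Fragments of mitochondrial DNA have also been inserted into the nuclear genome during evolution, and a read from a gene with a near-identical insert can be assigned to either place.

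Counts totalled 19332990 to 26086337 per library, and 28 of the 37 members had enough counts to be tested (all 13 protein-coding genes, both rRNAs and 13 of 22 tRNAs). The level of Rxra, summed over the whole gene and so no check of a deleted exon, was 21.6 to 31.8 CPM (counts scaled by library size) in Loxp, 23.2 and 26.4 in Hetero and 29.0 to 32.3 in cKO. Neurod6, the locus that holds the Cre, was 34.9 to 66.7 CPM in Loxp, 34.0 and 34.4 in Hetero and 22.9 to 38.1 in cKO. The library Hetero 2 stood apart in markers of choroid plexus, whose summed level was 746 CPM there and 3.67 to 23.7 CPM in the other 9 libraries. The part of that tissue in the Hetero values was not tested, and results that rest on Hetero 2 are given with and without it. Loxp 2 and cKO 2 stood apart together in summed markers of other cells: they had 664 and 649 CPM of interneuron markers against 806 to 990 in the other 8 libraries, 327 and 323 of endothelial markers against 215 to 262, and 1152 and 1343 of astrocyte markers against 965 to 1044. The part of these cells in the mitochondrial values was not tested. In whole tissue, fewer cells of a type and less RNA per cell cannot be told apart.

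The nuclear copies of the 6 genes lie together on chromosome 1. In GENCODE M21 (GRCm38, mm10), 7 unprocessed pseudogenes on the minus strand at chr1:24611535-24616197 matched, in the same order, the stretch chrM:6390-11042 of the plus strand. This stretch of 4653 bases runs from within mt-Co1 to within mt-Nd4. Only the annotated copies were compared with it, and the bases between them were not. Paired positions shifted by 1 base between the copies of mt-Nd3 and mt-Nd4l. Over the 4140 bases aligned between genes and copies there were 2 mismatches, and 5 of the 7 copies had none. The mismatches fall in mt-Nd3 and its copy Gm28438, and in mt-Co1 and its copy Gm29216. They are shown here because, within the aligned parts, they are the bases by which a read could be told apart. The differing base is in capitals, with positions counted from 1 at the 5′ end of the mitochondrial gene (T3C in mt-Nd3, A1066T in mt-Co1). The copy's windows at chr1:24613087-24613119 and chr1:24616155-24616188 are read from the minus strand:
mt-Nd3: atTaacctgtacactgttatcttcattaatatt
Gm28438: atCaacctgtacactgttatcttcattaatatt
mt-Co1: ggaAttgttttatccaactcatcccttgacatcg
Gm29216: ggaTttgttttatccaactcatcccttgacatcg

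The genes differed in how much of them lay in this stretch. Wholly inside it lay mt-Co2, mt-Atp8, mt-Atp6, mt-Co3, mt-Nd3 and mt-Nd4l. Only the first 876 of the 1378 bases of mt-Nd4 and the last 483 of the 1545 bases of mt-Co1 lay in it. The 5 protein-coding genes mt-Nd1, mt-Nd2, mt-Nd5, mt-Nd6 and mt-Cytb lay outside it, and their closest annotated nuclear matches were at most 96.7% identical (mt-Nd2, over 510 bases). mt-Atp8, a small subunit of the membrane part of ATP synthase, is inside by its position alone, since no copy of it is annotated there and only the 43 bases that it shares with mt-Atp6 were compared.

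The gene with the largest difference between groups was mt-Nd4l, which encodes a small membrane subunit of complex I and is the nearest neighbour of mt-Nd4. It is given whole (chrM:9877-10173, plus strand, exonic throughout), with the 7 bases it shares with the start of mt-Nd4 in capitals. All but its last 3 bases are identical to Gm10222 (chr1:24612407-24612700, minus strand), so its sequence holds no base that separates it from this copy over the 294 aligned bases. mt-Atp8 (chrM:7766-7969, plus strand) is given with the 43 bases it shares with mt-Atp6 in capitals:
mt-Nd4l: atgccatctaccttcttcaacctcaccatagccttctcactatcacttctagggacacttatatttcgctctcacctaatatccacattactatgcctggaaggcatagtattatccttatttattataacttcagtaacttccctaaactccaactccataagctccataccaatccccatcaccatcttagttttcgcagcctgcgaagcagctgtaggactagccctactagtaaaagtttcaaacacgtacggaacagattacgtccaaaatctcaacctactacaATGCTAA
mt-Atp8: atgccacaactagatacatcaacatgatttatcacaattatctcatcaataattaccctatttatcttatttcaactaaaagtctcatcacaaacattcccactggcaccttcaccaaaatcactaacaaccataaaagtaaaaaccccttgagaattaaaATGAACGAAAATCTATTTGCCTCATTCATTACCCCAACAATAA

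Among the rRNA and protein-coding genes, levels per length separated those wholly inside the stretch from the rest. In FPKM, the authors' values of fragments scaled by gene length and depth (mean over the 10 libraries), mt-Co1, the catalytic subunit of complex IV, had the highest level at 6707 and ranked 1 among all genes in the table. mt-Cytb of complex III followed at 4525, and mt-Nd1 of complex I at 3594. Each of these stood above the next in 10 of 10 libraries. mt-Rnr1, the small rRNA, was at 2509 and mt-Rnr2, the large rRNA, at 1677. The complex I genes mt-Nd2, mt-Nd4, mt-Nd6 and mt-Nd5 were at 1858, 1655, 1389 and 1322. Neighbours in this middle range were not in a fixed order: mt-Rnr2 was above mt-Nd4 in 4 of 10 libraries, and mt-Nd6 above mt-Nd5 in 6 of 10.

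Below mt-Nd5 came a gap of 15.01 times. The 6 protein-coding genes wholly inside the stretch filled the places below it. mt-Co2 was at 88.1 FPKM, mt-Atp6 at 62.7 and mt-Nd4l at 56.1. These 3 overlapped in their order between libraries, with mt-Atp6 above mt-Nd4l in 8 of 10. The mean of mt-Nd4l spans 9.17 to 187 FPKM over the libraries, and it was above mt-Co3 in only 5 of 10. mt-Co3 was at 38.1, mt-Nd3 at 26.2 and mt-Atp8 at 8.45, and mt-Atp8 was the lowest of all 15 rRNA and protein-coding genes in mean. mt-Co2 and mt-Co3, which encode core subunits of the same complex as mt-Co1, were thus listed at a small part of its level. Among these 15 genes, tRNAs left aside, the lowest value of a gene with at least part of its length outside the stretch was 988 FPKM in any library. The highest value of a gene wholly inside it was 193 FPKM (mt-Co2).

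**Figure D1:**
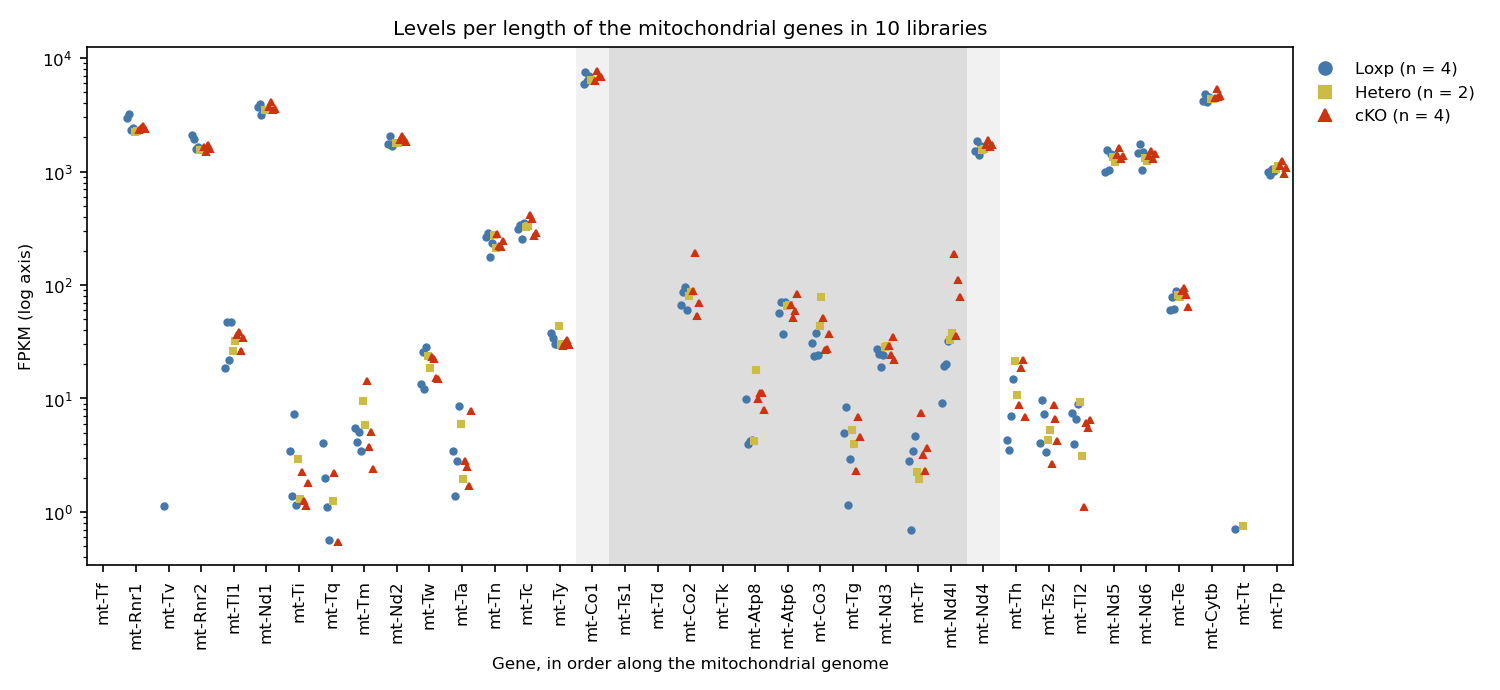
FPKM (log axis) of each mitochondrial gene in each of 10 libraries, in order along the mitochondrial genome, with zeros not drawn. Dark shading marks genes wholly inside the stretch spanned by the copies on chromosome 1 and light shading those partly inside it; the 6 shaded protein-coding genes between mt-Co1 and mt-Nd4 have means of 8.45 to 88.1, below the 1322 to 6707 of the other protein-coding genes.

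For the genes partly inside, the counts can be set against the part of the gene outside the stretch. mt-Nd4 had 4570 CPM per kilobase over its 502 bases outside the stretch, if all its counts fell there, and mt-Co1 had 9818 over its 1062 bases. On the same scale mt-Cytb, which has no part inside, had 4553. The deposited counts do not show where within a gene the reads lay. The handling of reads that match more than a single place, and of strand, is not given in the sources used here.

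The tRNAs had few counts in these libraries. Together they held 0.0109% to 0.0141% of all counts, and mt-Tf, mt-Ts1, mt-Td and mt-Tk had none in any library. A mean of at least 10 counts was reached by 8 tRNAs: mt-Tp (1648 counts), mt-Tc (503), mt-Tn (398), mt-Te (125), mt-Tl1 (57.7), mt-Ty (50.9), mt-Tw (30.8) and mt-Th (18.5). Of these, 5 came from the 8 tRNA genes on the light strand and 3 from the 14 on the heavy strand, and the 4 highest were all light-strand tRNAs. Each light-strand gene has heavy-strand transcript running through it in the opposite direction, and without the strand setting reads of both cannot be told apart. The same holds for mt-Nd6, the complex I subunit that is the only protein-coding gene of the light strand. The tRNA with the most counts, mt-Tp, which carries proline, lies at chrM:15356-15422 on the minus strand, and is shown because its level, 1053 FPKM, was near that of the mRNAs:
mt-Tp: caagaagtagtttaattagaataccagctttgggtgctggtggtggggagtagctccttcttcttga

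The share of counts on all mitochondrial genes was 3.02%, 3.68%, 2.80% and 3.17% in Loxp 1 to 4, 3.06% and 3.02% in Hetero, while cKO 1 to 4 had 3.15%, 3.58%, 3.16% and 3.20%. Loxp 2 and cKO 2, which stood apart in markers of other cells, were the highest libraries, and the groups overlapped. The mean share was 3.17% ± 0.373 (SD, n = 4) in Loxp and 3.27% ± 0.204 (SD, n = 4) in cKO, a difference of 0.103 percentage points, less than the SD within either group. It was -0.0199 without Loxp 3, 0.273 without Loxp 2, 0.0011 without cKO 2 and 0.171 without Loxp 2 and cKO 2. In each library mt-Co1 alone held 30.1% to 34.2% of the mitochondrial counts.

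**Figure D2:**
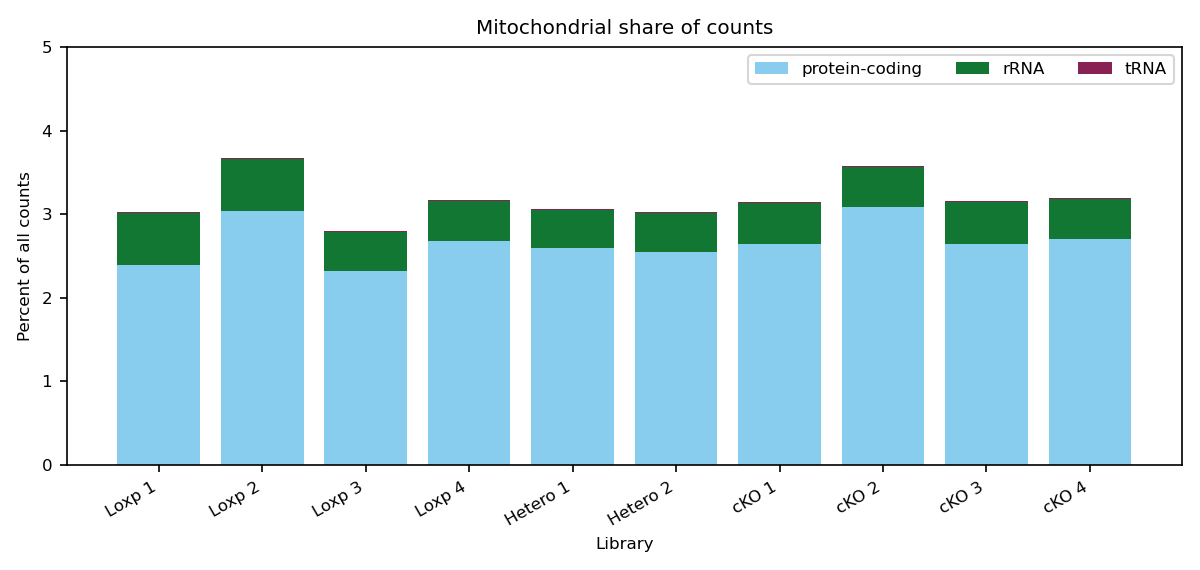
Percent of all counts on mitochondrial protein-coding, rRNA and tRNA genes, stacked, in each of 10 libraries. The totals run from 2.80% (Loxp 3) to 3.68% (Loxp 2), the cKO and Hetero bars lie between these, and the tRNA layer is barely visible at 0.0109% to 0.0141%.

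Between cKO and Loxp no member passed the test across all genes (edgeR quasi-likelihood, Benjamini-Hochberg adjusted p under 0.05; 0% of 18455 genes tested). At an unadjusted p under 0.05 there was 1 of 28 members, against 2.53% of all genes. DESeq2 and limma-voom called none of the 15 rRNA and protein-coding genes either, in any of the 3 comparisons. The comparison asks whether loss of Rxra in excitatory neurons goes with a change in mitochondrial RNA. By value, 18 of 28 members were higher in cKO and 10 lower, where 50.1% and 49.9% of all genes tested were. Of the 13 protein-coding genes 12 were higher, and both rRNAs were lower. Mitochondrial genes share long precursors, so counts of members, here and in the other comparisons, are not of separate observations. The median log2 fold change was 0.25 over the 6 genes with near-identical copies, 0.09 over the other 7, and 0.00033 over all genes tested.

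The member with an unadjusted p under 0.05 was mt-Nd4l. Its level was 2.75, 5.74, 6.09 and 9.57 CPM in Loxp 1 to 4, 9.76 and 11.4 in Hetero 1 and 2, while cKO 1 to 4 had 55.7, 10.5, 32.9 and 23.2. Every cKO library lay above every Loxp library, but cKO 2 lay between the Hetero libraries, and the cKO libraries spread from 10.5 to 55.7. In cKO against Loxp the log2 fold change was 2.33 (SE 0.426), with an unadjusted p of 9.85e-05 and an adjusted p of 0.9998 by edgeR. This was the smallest unadjusted p of all genes tested by edgeR. It was also the only member whose cKO and Loxp libraries did not overlap, where 1.54% of all genes tested did not overlap, 0.818% higher and 0.721% lower. Without cKO 2 the adjusted p was 0.0237 by edgeR, and without Loxp 2 and cKO 2 it was 0.201 (log2 fold change 2.59). With no filter on low counts it was 1.83e-15 by edgeR, in a fit that called 32 genes where the main fit called 0. That fit also gave Gm10925, the copy of mt-Atp6, an adjusted p of 7.22e-07. The log2 fold change of Gm10925 was 1.17 with cKO 3 and 0.49 without it, so a small p there can go with a difference that leans on 1 library. For mt-Nd4l the adjusted p was 0.14 by DESeq2, 0.353 with the replicate number as a block, and at least 0.84 when any other library was left out. In the authors' deposited table it was 0.339 for mt-Nd4l and also for the copy Gm10222. No member had an adjusted p under 0.05 there in this comparison.

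Its neighbours on the genome had smaller differences by value. The annotated genes mt-Nd4 and mt-Nd4l overlap by 7 bases with no tRNA between them, so cutting at tRNAs does not part their RNA. Counts at both may therefore come from the same RNA. mt-Nd4 was 0.11 higher in cKO on the log2 scale (SE 0.0923). mt-Nd4l counts were 0.131% to 0.414% of mt-Nd4 counts in Loxp, 0.452% and 0.518% in Hetero, and 0.402% to 2.34% in cKO. mt-Nd3, the complex I gene on its other side, was 9.58, 8.61, 6.68 and 8.41 CPM in Loxp, 10.01 and 10.07 in Hetero, while cKO had 10.1, 8.51, 12.3 and 7.57. The ratio of mt-Nd4l to mt-Nd3 counts was therefore 0.286 to 1.14 in Loxp and 1.24 to 5.50 in cKO, without overlap. These differences between genes were not tested.

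mt-Atp8 was the next member by p. Its level was 2.02, 0.813, 0.865 and 0.877 CPM in Loxp, 0.868 and 3.64 in Hetero, while cKO had 2.05, 2.29, 2.30 and 1.63. Loxp 1 was well above the other Loxp libraries and lay within the cKO range. Its log2 fold change between cKO and Loxp was 0.86 (SE 0.404), with an unadjusted p of 0.0518 by edgeR and 0.0571 by the exact permutation test. Its counts were few, 17 to 81 per library. mt-Co2, mt-Co3, mt-Nd3 and mt-Atp6 were higher in cKO by 0.38 (SE 0.308), 0.29 (SE 0.23), 0.21 (SE 0.16) and 0.15 (SE 0.185), and their groups overlapped. For mt-Co2 the difference rested on cKO 2, at 133 CPM against 37.1 to 60.3 in the other cKO libraries, and it was -0.14 without that library and -0.074 without Loxp 2 and cKO 2.

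The protein-coding genes with at least part of their length outside the stretch had far tighter values. For mt-Cytb the 4 Loxp libraries had 4782, 5536, 4692 and 5185 CPM, the Hetero libraries 5001 and 5012, and the cKO libraries 5152, 6127, 5257 and 5347. The groups overlapped, and cKO exceeded Loxp by a log2 fold change of 0.12 (SE 0.0843). For mt-Nd5, the largest mitochondrial subunit of complex I, Loxp had 1816, 2830, 1914 and 2587 CPM, Hetero 2476 and 2249, and cKO 2563, 2948, 2344 and 2536. Loxp 1 and Loxp 3 were low, and the log2 fold change was 0.18 (SE 0.134). mt-Nd4, mt-Nd2, mt-Co1 and mt-Nd1 were higher in cKO by 0.11, 0.09, 0.06 and 0.05 on the log2 scale.

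mt-Nd6 was the only protein-coding gene that was lower in cKO by value. Loxp had 759, 917, 539 and 769 CPM, Hetero 691 and 641, and cKO 717, 796, 674 and 750. Loxp held both the highest and the lowest library, and the log2 fold change was -0.02 (SE 0.128). Per length, mt-Nd6 was 1.47 times mt-Nd5 in Loxp 1 and 0.949 to 1.14 times in the other 9 libraries.

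Both rRNAs were lower in cKO than in Loxp by value. For mt-Rnr1 Loxp had 2877, 3083, 2254 and 2310 CPM, Hetero 2122 and 2184, and cKO 2244, 2331, 2439 and 2268. For mt-Rnr2 Loxp had 3333, 3112, 2505 and 2579, Hetero 2441 and 2466, and cKO 2611, 2392, 2740 and 2528. For both, Loxp 1 and Loxp 2 were the highest of all libraries and the other Loxp libraries lay within the cKO range. The log2 fold changes in cKO against Loxp were -0.18 (SE 0.101) and -0.17 (SE 0.0976), with exact permutation p = 0.314 and 0.286. As a share of mitochondrial counts the rRNAs were 20.4% in Loxp 1, 13.2% in cKO 2 and 14.96% to 17.2% in the other libraries.

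**Figure D3:**
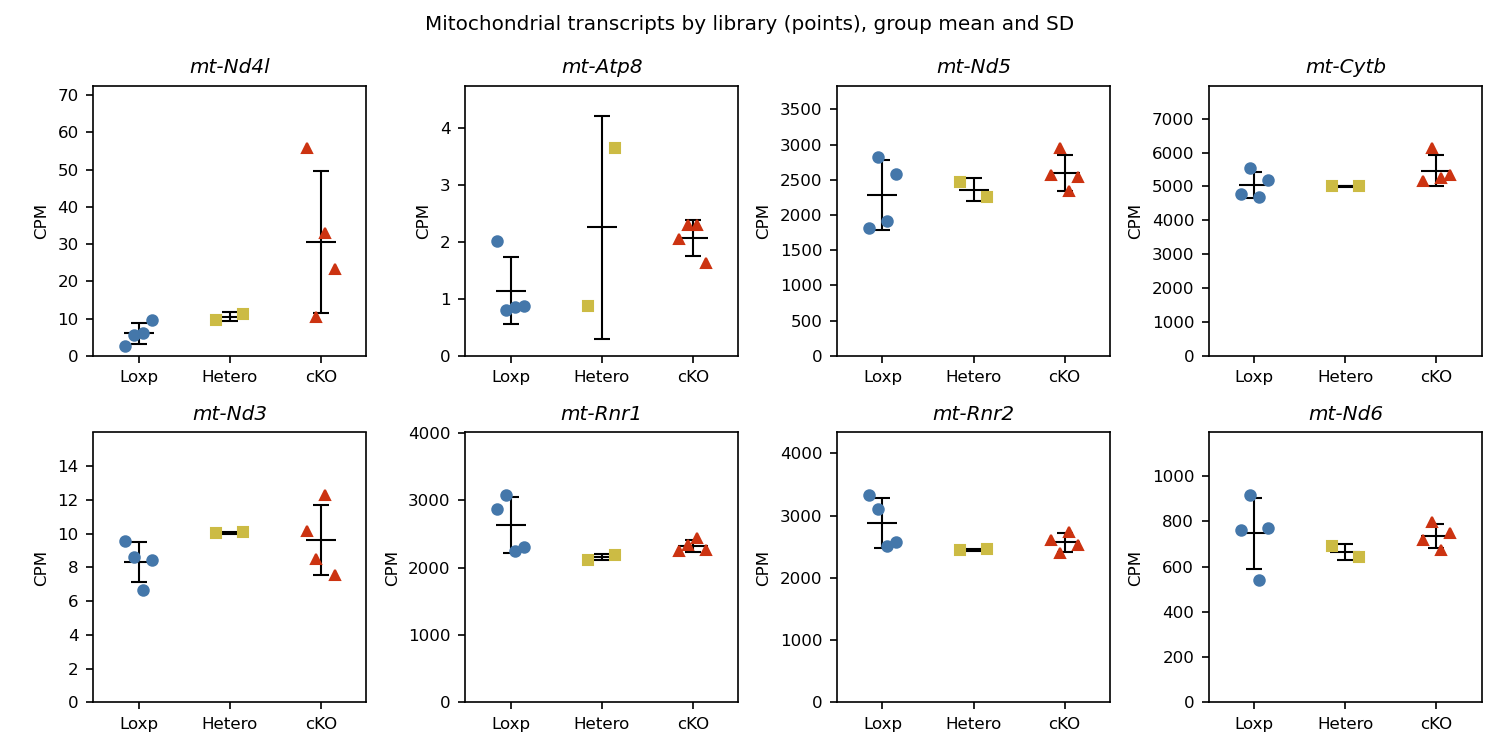
CPM of 8 mitochondrial transcripts in each library (points; circles Loxp, squares Hetero, triangles cKO), with the group mean and SD as black bars and each vertical axis starting at 0. The 4 cKO points of mt-Nd4l, 10.5 to 55.7, lie above the Loxp points, 2.75 to 9.57, while the groups overlap in the other 7 panels for cKO and Loxp.

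Between Hetero and Loxp no member passed the test either (0% of 18455 genes by edgeR), and 2 of 28 members had an unadjusted p under 0.05, against 2.54% of all genes. The same Loxp libraries served here and in the comparison of cKO with Loxp, so both share any deviation of theirs. The median log2 fold change was 0.22 over the 6 genes with near-identical copies and -0.02 over the other 7. By value 16 of 28 members were higher in Hetero and 12 lower, where 48.2% and 51.8% of all genes were. The 6 members with no overlap between the groups stood against 11.4% of all genes tested, since 2 libraries often fall outside the range of 4. Of these, mt-Co3, mt-Nd3, mt-Nd4l and the tRNA mt-Tm were higher in Hetero (5.64% of all genes) and both rRNAs were lower (5.77%).

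mt-Co3, a core subunit of complex IV, had the smallest p of the members. It was 24.4, 18.6, 29.9 and 19.02 CPM in Loxp, 34.6 and 61.6 in Hetero, while cKO had 40.5, 21.3, 21.5 and 29.2. Hetero exceeded Loxp by a log2 fold change of 1.07 (SE 0.271), with an unadjusted p of 0.00163 and an adjusted p of 0.9998 by edgeR. The adjusted p was 0.9999 by limma-voom. The log2 fold change was 0.59 without Hetero 2 and 1.42 without Hetero 1. In the authors' deposited table mt-Co3 was the only member with an adjusted p under 0.05 in this comparison, at 0.00301. With no filter on low counts the adjusted p was 1.41e-06 by edgeR, in a fit that called 68 genes where the main fit called 0.

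mt-Nd4l was higher in Hetero than in Loxp by 0.80 (SE 0.513) on the log2 scale, and by 0.68 without Hetero 2. mt-Nd3 was higher by 0.27 (SE 0.195), and by 0.27 without Hetero 2. mt-Atp8 was higher by 1.001 (SE 0.48), but -0.38 without Hetero 2, since Hetero 1 lay within the Loxp range. mt-Rnr1 was -0.29 (SE 0.125, unadjusted p 0.0379 by edgeR) and mt-Rnr2 -0.23 (SE 0.121), and without Hetero 2 these were -0.31 and -0.24. The 5 protein-coding genes outside the stretch ranged from -0.16 (mt-Nd6) to 0.05 (mt-Nd5).

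Between cKO and Hetero no member passed (0% of 18455 genes by edgeR), and 2 had an unadjusted p under 0.05, against 1.74% of all genes. mt-Nd4l was higher in cKO by 1.53 (SE 0.528, unadjusted p 0.0121) and mt-Co3 lower, at -0.78 (SE 0.271, unadjusted p 0.0131), and both groups overlapped for either gene. Without Hetero 2 these values were 1.65 and -0.30. With no filter on low counts both passed by edgeR, with adjusted p of 4.35e-05 for mt-Nd4l and 0.004 for mt-Co3. That fit called 39 genes where the main fit called 0. By value 16 of 28 members were higher in cKO and 12 lower, where 52.5% and 47.5% of all genes were. All 5 protein-coding genes outside the stretch were higher in cKO, by 0.09 to 0.14. The groups did not overlap for mt-Cytb, mt-Nd1, mt-Nd2, mt-Nd4 and mt-Rnr1, all 5 higher in cKO, which are not 5 separate observations. Of all genes tested 9.43% did not overlap, 4.9% higher and 4.54% lower in cKO.

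**Figure D4:**
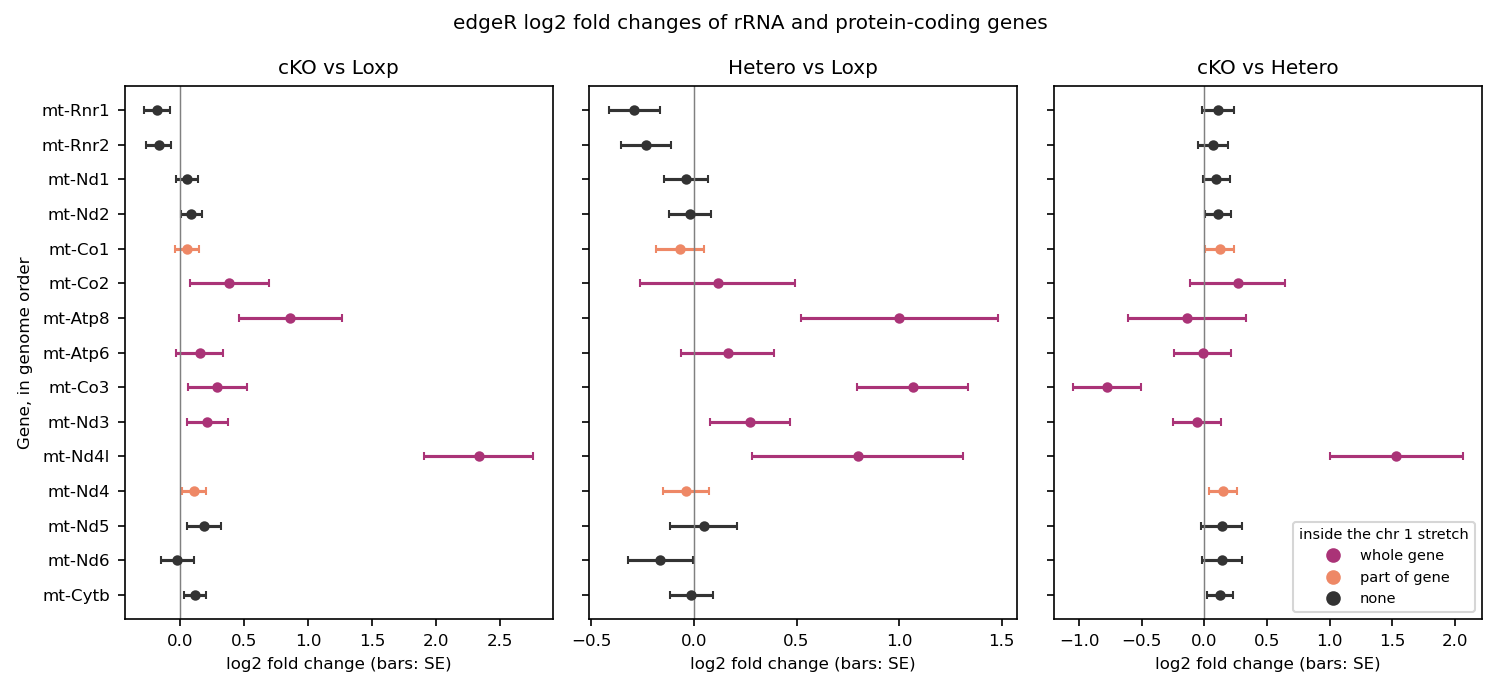
edgeR log2 fold changes with SE bars for the 2 rRNA and 13 protein-coding genes in genome order, in a panel for each pair of groups. Genes wholly inside the stretch spanned by the copies have the widest bars in cKO against Loxp, and mt-Nd4l in cKO against Loxp reaches 2.33 while genes with no part inside it stay between -0.29 and 0.18 in all 3 panels.

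The copies themselves gave counts in every library. Mean counts were 835 for Gm10925 (copy of mt-Atp6), 490 for Gm28661 (mt-Co2), 362 for Gm28437 (mt-Co3), 295 for Gm29216 (mt-Co1), 200 for Gm28439 (mt-Nd4) and 80.4 for Gm10222 (mt-Nd4l). The seventh, Gm28438 (mt-Nd3), had 52.3 and is named beyond the rule of 6 copies, after its values were seen. All 7 were higher in cKO than in Loxp by value, their median being 0.51 on the log2 scale, and 5 had an unadjusted p under 0.05, where 2.53% of all genes had. These include Gm10925, whose log2 fold change was 1.17 with cKO 3 and 0.49 without it. Groups did not overlap for Gm10222, which was 1.73 to 2.60 CPM in Loxp, 7.20 and 2.79 in Hetero, and 3.55 to 5.16 in cKO, a log2 fold change in cKO against Loxp of 0.92 (SE 0.267, unadjusted p 0.00419 by edgeR). None of the 7 copies passed adjustment by edgeR. They lie together on chromosome 1 and so are not 7 separate observations.

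All 7 copies were also higher in Hetero than in Loxp by value, with a median of 0.72. Of these, 6 did not overlap, where 5.64% of all genes were higher without overlap, and 5 had an unadjusted p under 0.05, where 2.54% had. The largest was Gm29216, at 6.72 to 12.5 CPM in Loxp against 34.8 and 13.8 in Hetero, a log2 fold change of 1.42 (SE 0.328). It was 0.60 without Hetero 1, and the median over the copies was 0.60 as well. Gm10222 was 1.21 higher in Hetero, but 0.38 without Hetero 1. In the authors' deposited table Gm28661 and Gm28437 had adjusted p of 0.00302 and 0.0353 in Hetero against Loxp. Both comparisons use the same Loxp libraries, and the 7 copies lie together on chromosome 1, so these counts are not of separate observations.

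The ratio of counts between a gene and its copy showed how evenly the pair was divided. For mt-Atp6 and Gm10925 it was 1.19 to 2.23 in 9 libraries and 0.379 in cKO 3. For mt-Co3 and Gm28437 it was 1.46 to 3.23 over all libraries. For mt-Nd4l and Gm10222 it was 1.58 to 4.29 in Loxp, 1.35 and 4.08 in Hetero, and 2.68 to 10.8 in cKO. By contrast mt-Nd4 had 203 to 394 times the counts of Gm28439, and mt-Co1 285 to 1503 times those of Gm29216. The genes with sequence outside the match thus exceeded their copies by far, while those without were within 10.8 times of theirs.

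Counts of gene and copy added together gave mt-Nd4l a log2 fold change of 2.08 in cKO against Loxp, with an adjusted p of 0.9998 by edgeR. Reads counted at neither place are missing from this sum. It therefore cannot show how reads that match both places bear on the difference. Across the 10 libraries, which share scaling and belong to 3 groups, log2 CPM of gene and copy were correlated at r = 0.67 (Spearman rho 0.67) for mt-Co3, with a permutation p of 0.0351 for r and 0.0395 for rho. For mt-Nd4l r was 0.63 and rho 0.73 (permutation p 0.0534 and 0.0196). Over the 6 pairs the smallest adjusted p was 0.16 for r and 0.118 for rho, so no pair passed. For mt-Nd4, mt-Nd3, mt-Atp6 and mt-Co2 r was 0.54, 0.47, 0.18 and 0.026. Leaving out the 2 libraries farthest in the copy's level gave r = 0.60 for mt-Co3, 0.85 for mt-Nd4l, 0.24 for mt-Nd4, 0.046 for mt-Nd3, 0.16 for mt-Atp6 and 0.098 for mt-Co2, so the values of mt-Nd4 and mt-Nd3 rested on those libraries.

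**Figure D5:**
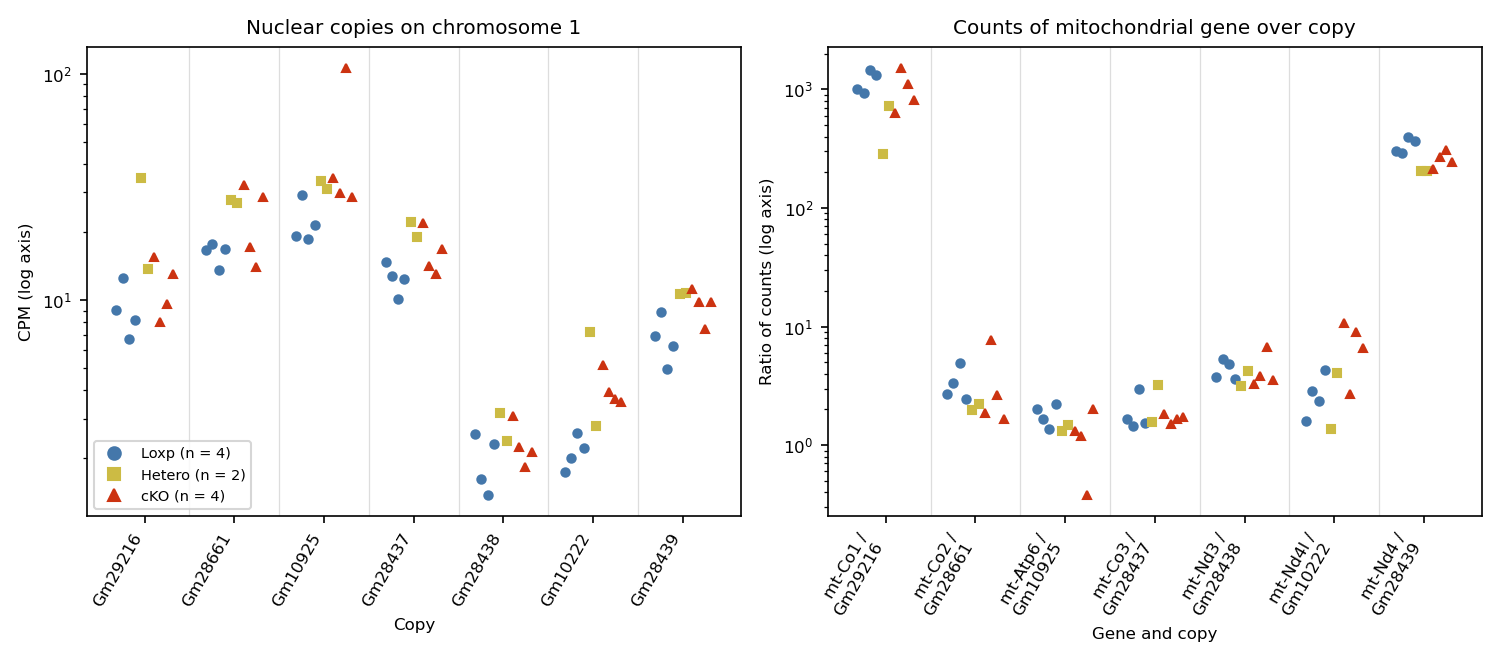
Left, CPM (log axis) of the 7 copies on chromosome 1 in each library; right, counts of each mitochondrial gene divided by those of its copy (log axis). The ratios of mt-Co1 and mt-Nd4 lie at 203 to 1503 and those of the other 5 pairs at 0.379 to 10.8; Gm10925 in cKO 3, at 106 CPM, stands above the other libraries.

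Nuclear genes that act on or with the mitochondrial transcripts were read from whole lists of their pathways, chosen with earlier results of these data known, and none of their genes passed adjustment by edgeR in any of the 3 comparisons. Genes of mitochondrial DNA maintenance and transcription were higher in cKO than in Loxp for 8 of 25 (median -0.06 on the log2 scale). Among them Tfam, which packages mitochondrial DNA and starts its transcription, was 26.002 to 29.9 CPM in Loxp, 24.7 and 24.7 in Hetero, and 22.1 to 25.5 in cKO, a change of -0.20 (SE 0.0852, unadjusted p 0.0329 by edgeR) without overlap. Tfam was the only 1 of the 25 with an unadjusted p under 0.05, where 2.53% of all genes had, and 0.721% of all genes were lower without overlap. Tfb2m, its partner in starting transcription, was -0.18, and Polg2, the accessory subunit of the mitochondrial DNA polymerase, -0.31. Of genes for mitochondrial RNA processing and stability 13 of 32 were higher (median -0.03). They include Trmt10c, a subunit of the enzyme that cuts precursors at the 5′ end of tRNAs, at -0.31 (SE 0.166), Ptcd1 at 0.22 and Fastkd1 at 0.15.

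The nuclear partners of the mitochondrial proteins were mostly lower in cKO than in Loxp by value, where 49.9% of all genes tested were lower. In cKO against Loxp, 19 of 77 mitochondrial ribosomal proteins were higher (median -0.05), led by p by Mrpl20 at -0.17, Mrpl12 at -0.16 and Mrpl45 at -0.15. For nuclear subunits of complex I it was 3 of 37 (median -0.07, Ndufc2 -0.24, Ndufb9 -0.15, Ndufs3 -0.13). For complex III it was 3 of 9 (median -0.02, Uqcrh -0.15, Uqcrfs1 -0.10, Uqcrb -0.11). For complex IV it was 0 of 12 (median -0.07, Cox6c -0.16, Cox4i1 -0.15, Cox7c -0.13). For ATP synthase it was 3 of 17 (median -0.09, Atp5h -0.18, Atp5f1 -0.16, Atp5g3 -0.16). The summed level of complex IV subunits was 3609 CPM in Loxp 1 and 2734 to 2948 in the other Loxp libraries, against 2835 to 2960 in cKO. For complex I these were 3434, 2556 to 2868, and 2617 to 2873 CPM, and for ATP synthase 4604, 3578 to 3931, and 3600 to 3847. Ribosomal proteins had 2331, 1946 to 2025, and 1970 to 2033, and complex III 1387, 1076 to 1168, and 1142 to 1171. Loxp 1 thus stood above the rest in each of these lists, as it did in rRNA share, and the other Loxp libraries overlapped cKO. The part of Loxp 1 in the lower values was not tested.

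Markers of other cells were read beside these values, for the whole of each list, and none of these marker lists had a gene at 0 in all libraries. Oligodendrocyte markers were lower in cKO than in Loxp for 6 of 6 genes (median -0.19), with a summed level of 8392 to 10572 CPM in Loxp, 6408 and 9325 in Hetero and 5955 to 9827 in cKO. Red blood cell genes were higher in cKO for 1 of 5 and summed to 3.27 to 211 CPM in Loxp, 22.3 and 37.3 in Hetero and 21.7 to 161 in cKO. Excitatory neuron markers were higher for 3 of 8 genes and summed to 8980 to 10239 CPM in Loxp, 9455 and 9853 in Hetero and 9343 to 10451 in cKO. That list includes Neurod6, the locus that holds the Cre. Higher by value in cKO were also 2 of 6 interneuron, 4 of 6 astrocyte, 6 of 6 microglia (median 0.05), 1 of 6 endothelial and 4 of 7 choroid plexus markers. In Loxp and cKO respectively, interneuron markers summed to 664 to 950 and 649 to 990 CPM, astrocyte markers to 981 to 1152 and 977 to 1343, endothelial markers to 246 to 327 and 215 to 323, and microglia markers to 242 to 268 and 246 to 308. The lowest interneuron and the highest astrocyte and endothelial sums of both groups were those of Loxp 2 and cKO 2. Of RNAs that lack a poly(A) tail 2 of 5 tested were higher, and 10 of the 25 in the list were at 0 in all libraries. The whole list summed to 40.0 to 45.7 CPM in Loxp, 40.8 and 41.2 in Hetero and 36.7 to 47.2 in cKO. Of RNAs kept in the nucleus 5 of 8 were higher, at 6867 to 9813 CPM in Loxp, 7943 and 8739 in Hetero and 7873 to 9096 in cKO. No gene of these lists passed adjustment by edgeR, and the part of any of them in the mitochondrial values was not tested.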

How the data were processed

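The authors deposited read counts and FPKM per gene and library; per the submitters' processing notes the build was mm10 and the counter featureCounts 1.5.0-p3. Of their own comparisons the authors deposited p-values, raw and adjusted, with log2 fold changes. The kit was NEBNext Ultra and the input 3 µg of RNA, per the labels' protocols. Which aligner, annotation and strand setting were used, and how reads that match several places were handled, is not given in the sources used here.

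Counts as deposited were tested with edgeR 4.0.16 (R 4.3.3; TMM, filterByExpr, quasi-likelihood) over all 10 libraries, and p-values were adjusted over the 18455 genes tested. CPM used TMM-scaled totals, and log2 CPM a prior count of 2. The edgeR step was tested on simulated data. Positions came from GENCODE M21, in which 52403 of the 52636 IDs were found, and copies from blastn 2.17.0 (at least 98% identity over at least 50% of the gene for the 6 genes). Sequences were read from that release's transcripts.

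The members and gene lists were chosen with earlier results of these data known. Named were all rRNA and protein-coding genes, tRNAs with a mean of at least 10 counts, the 6 copies with the highest mean count, and the 3 genes of each nuclear list with the smallest p in cKO against Loxp. Shown in every library were the 5 protein-coding genes with the smallest p, both rRNAs and mt-Nd6; mt-Co3 and the copies were added after their values were seen. The alternatives tried were other scalings, filters, tools and sets of libraries, a replicate block, and counts summed with those of the copies; leaving out Loxp 2 and cKO 2 together was added after seeing the data. Read counts without molecular identifiers are not independent molecules.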

Additional observations from a re-analysis of the deposited data

Results flagged for a closer look

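Of 60 groups of 4 libraries looked at (log2 CPM of the rRNA and protein-coding genes, the 8 named tRNAs and the 7 copies, in Loxp and in cKO), 2 had a library whose gap to the others was large for the range of its group, where chance gives about 1 in 20. mt-Atp8 in Loxp 1 was 2.02 CPM, and the other Loxp libraries were 0.813 to 0.877 CPM. Without Loxp 1 the log2 fold change of mt-Atp8 in cKO against Loxp was 1.27, against 0.86 with it. The copy Gm10925 in cKO 3 was 106 CPM, and the other cKO libraries were 28.7 to 34.8 CPM. Without cKO 3 the log2 fold change of Gm10925 in cKO against Loxp was 0.49, against 1.17 with it, while its mitochondrial counterpart mt-Atp6 had 40.1 CPM in cKO 3 and 35.2 to 57.6 CPM in the other cKO libraries.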

How the results depend on the processing

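The number of genes called over the whole table was 0 in each comparison and, by edgeR without a filter on low counts, 32 in cKO against Loxp, 39 in cKO against Hetero and 68 in Hetero against Loxp; the cause was not tested. DESeq2 called 11 in Hetero against Loxp and 3 in cKO against Hetero. Leaving out each library gave 0 to 1 genes in cKO against Loxp (the 1 is mt-Nd4l, without cKO 2), 0 to 15 in Hetero against Loxp and 0 to 14 in cKO against Hetero (the highest both without Hetero 1). With the replicate number as a block, 1, 1 and 0 genes were called. Same-numbered libraries of Loxp and cKO correlated at 0.095, 0.20, 0.042 and 0.32 in their deviations from the group means, and pairs with different numbers at -0.23 to 0.035. Each of these libraries thus correlated best with its own number, a hint from the data and not the design; since 2 of the 4 were under 0.1, the numbers were not taken as pairs. Under the block mt-Co2 in Hetero against Loxp was -0.15, and in cKO against Hetero Gm28439 was 0.030 and mt-Atp8 0.12. mt-Atp8 there was also 0.14 by limma-voom. Scaling by library size alone gave mt-Cytb 0.0026 in Hetero against Loxp, and adding the copies' counts gave mt-Atp6 0.29 in cKO against Hetero. Without the filter, mt-Nd4l and Gm10925 passed in cKO against Loxp, mt-Co3, Gm28661, Gm28437, Gm29216 and Gm10222 in Hetero against Loxp, and mt-Nd4l, mt-Co3 and Gm29216 in cKO against Hetero. In cKO against Loxp the median of the 6 genes with copies ran from 0.16 (without cKO 1) to 0.37 (summed with copies) and that of the other 7 from 0.050 to 0.16; in Hetero against Loxp these were 0.20 to 0.31 and -0.067 to 0.040, so the second changed sign; in cKO against Hetero they were 0.024 to 0.13 and 0.067 to 0.16.

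Values that changed sign when a library was left out had these ranges. In cKO against Loxp they were -0.00019 to 0.11 for mt-Nd1, -0.15 to 0.092 for mt-Nd6, -0.14 to 0.60 for mt-Co2 and -0.016 to 0.26 for mt-Atp6. In Hetero against Loxp they were -0.044 to 0.035 for mt-Cytb, -0.091 to 0.017 for mt-Nd1, -0.049 to 0.17 for mt-Nd5, -0.095 to 0.040 for mt-Nd4, -0.054 to 0.050 for mt-Nd2, -0.0016 to 0.27 for mt-Atp6 and -0.38 to 1.68 for mt-Atp8. In cKO against Hetero they were -0.26 to 0.47 for mt-Co2, -0.16 to 0.083 for mt-Atp6, -0.058 to 0.81 for Gm10925, -0.20 to 0.036 for mt-Nd3, -0.82 to 0.55 for Gm10222 and -0.81 to 1.25 for mt-Atp8. With 2 Hetero libraries, leaving out either rests on 1 library that is assumed to vary like the other groups. Depth limits mt-Atp8 (17 counts at the least) and the tRNAs, among them mt-Th and mt-Tw with means of 18.5 and 30.8 counts. Leaving out Loxp 2 and cKO 2 together was added after seeing the data; no gene was called in any comparison. These values changed sign under it: in cKO against Loxp mt-Nd6 (0.057) and mt-Co2 (-0.074); in Hetero against Loxp mt-Co1 (0.0027), mt-Cytb (0.040), mt-Nd1 (0.023), mt-Nd4 (0.045) and mt-Nd2 (0.056); in cKO against Hetero mt-Co2 (-0.26) and mt-Atp6 (0.086).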
